A study of Mus musculus with 8 samples.

Results

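Cytosolic ribosomal protein genes encode the proteins that, with ribosomal RNA, build the large and small subunits of the ribosomes in the cytoplasm. They were taken here as every gene named alone by a row of the array annotation whose symbol starts with Rpl or Rps followed by a digit, with Rpsa, Rplp0, Rplp1 and Rplp2 added. The 6 Rps6k kinases, which phosphorylate other proteins and are no part of the ribosome, and 15 pseudogene symbols containing -ps were left out. The rule gave 69 of the 22180 genes measured: 35 proteins of the large subunit, 23 of the small subunit and 11 paralogs, copies or other genes that share the prefix. Of these 11, Rpl6l and Rps4l are annotated as pseudogenes in RefSeq and stayed in because their symbols do not contain -ps. A further 14 ribosomal protein symbols occur only in rows that name several genes and are not analysed here alone.

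Liver RNA was profiled on 8 arrays of the type Affymetrix Mouse Gene 2.0 ST, whose probes for a gene are distributed over its exons. By their labels, 4 came from interleukin-10-deficient mice and 4 from wild-type mice, and the design text counts that many mice per genotype. All mice of both groups are labelled C57BL/6, female and 6 weeks old, and all drank 3% dextran sulfate sodium (DSS), an agent that damages the colon epithelium and so brings on colitis, for 7 days. No mouse without DSS enters the comparison, so it is between genotypes under colitis, and nothing in the labels beyond the mouse count ties an array to an animal.

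The transcript of the targeted gene goes against the genotype label, though at a low signal. Its means, 5.97 in arrays labelled knockout and 4.97 in wild-type arrays, lay below the median of all rows in every array (6.09 to 6.22). Il10 read 5.79, 5.69, 6.00 and 6.41 on the log2 scale in the arrays labelled knockout, against 4.95, 5.08, 4.90 and 4.95 in wild-type arrays (limma adjusted p = 0.00851), and no source used here says whether its probes lie inside the mutated stretch. Every direction below is therefore that of the arrays labelled knockout. The arrays labelled knockout replicates 1 and 2 and wild-type replicates 1 and 2 carried Y-linked signal, while replicates 3 and 4 of both groups carried Xist signal, although all are labelled female. Each set holds 2 arrays per group, and the genes described with their values in every array are, except Il10, Rps6 and Rpl7, also given within each set. The liver label was checked against 11 hepatocyte markers: Alb, which encodes serum albumin, averaged 13.51 ± 0.04 in arrays labelled knockout and 13.63 ± 0.02 in wild-type arrays (SD, n = 4 each), and none of the 11 passed the test.

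A ribosome is assembled in the nucleolus from ribosomal RNA and about equal numbers of each protein, and cells hold its many protein genes to similar output. Their messenger RNAs typically begin with a C followed by a run of C and T bases, the terminal oligopyrimidine (TOP) motif, through which the mTOR pathway controls how strongly they are translated. Liver is a major site of protein secretion and hepatocytes are rich in ribosomes. Array values measure transcript levels and do not show translation.

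The bases around the annotated transcription start are shown for the genes with the clearest differences and for Rps6, a member at equal level in both groups, because the start of the messenger RNA holds the TOP motif. Each run is 5′ to 3′ on the gene's own strand, from RefSeq on GRCm38.p6, with 10 bases before the start and 20 from it onward, and capitals mark the longest unbroken run of C and T. The windows lie at chr8:3567988-3568017 (plus strand) for Rps23rg1, chr3:130730379-130730408 (minus strand) for Rpl34, chr7:24884582-24884611 (plus strand) for Rps19, chr7:116334171-116334200 (minus strand) for Rps13, chr14:18270967-18270996 (minus strand) for Rpl15 and chr4:86857348-86857377 (minus strand) for Rps6.
Rps23rg1: gcagagagTCTTTCTCTCaccccagataaa
Rpl34: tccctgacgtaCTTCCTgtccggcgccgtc
Rps19: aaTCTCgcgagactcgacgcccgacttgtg
Rps13: caaacgtcggtgagtggcgtcaCTTCCTgt
Rpl15: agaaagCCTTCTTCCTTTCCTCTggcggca
Rps6: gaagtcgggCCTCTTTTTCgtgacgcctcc
In Rpl15 and Rps6 the base at the annotated start is a C inside the run, which goes on for 13 bases in Rpl15 and 9 in Rps6, counting that C. In Rps23rg1, Rpl34, Rps19 and Rps13 the base at the annotated start is not a C. The same holds for Rps4x, whose window is not shown and whose difference was 0.00. The Rps23rg1 run spans the start, where it holds a T, and the Rpl34 run begins at the base after the start. Annotated starts can differ from those used in liver, which were not measured.

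As a set, the ribosomal protein genes read level between the groups, although 12 of them had a mean below the median of all rows in every array. The median difference over the 69 genes, arrays labelled knockout minus wild-type arrays, was 0.01 log2 units, with quartiles of -0.13 and 0.09, beside a median of 0.03 and quartiles of -0.09 and 0.13 over all genes. After the arrays were shifted to a common median the members' median was -0.046 and that of all genes -0.03. As deposited, differences were above 0 for 38 members and below 0 for 31. The 95% interval of the difference lay within 0.32 log2 units of 0 in both directions for 41 members (59.4%), against 48.4% of all genes, and 6 members (8.70%) differed by more than 0.3, against 12.9% of all genes. The median SD within groups was 0.107 for the members and 0.133 for all genes.

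By limma, 2 members passed an adjusted p below 0.05, Rps23rg1 and Rpl34, and both were lower in arrays labelled knockout. That is 2.90% of the members, beside 3.15% of all genes called in either direction, 1.59% called lower and 1.56% called higher, and no member was called higher. At an adjusted p below 0.1 the count was 7 members (10.1%), beside 7.60% of all genes. At an unadjusted p below 0.05 it was 12 members, 9 lower and 3 higher, which is 17.4% beside 21.2% of all genes. The 4 arrays labelled knockout all lay below the 4 wild-type arrays for 7 members (10.1%), beside 5.74% of all genes. They all lay above them for 2 members (2.90%), beside 7.20% of all genes. The members' count of calls was thus near the share over all genes. With 1 array left out that share ran from 0.933% (wild-type replicate 1 or knockout-labelled replicate 4 removed) to 4.69% (knockout-labelled replicate 1 removed), and 1 or 2 members were called lower.

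**Figure D1:**
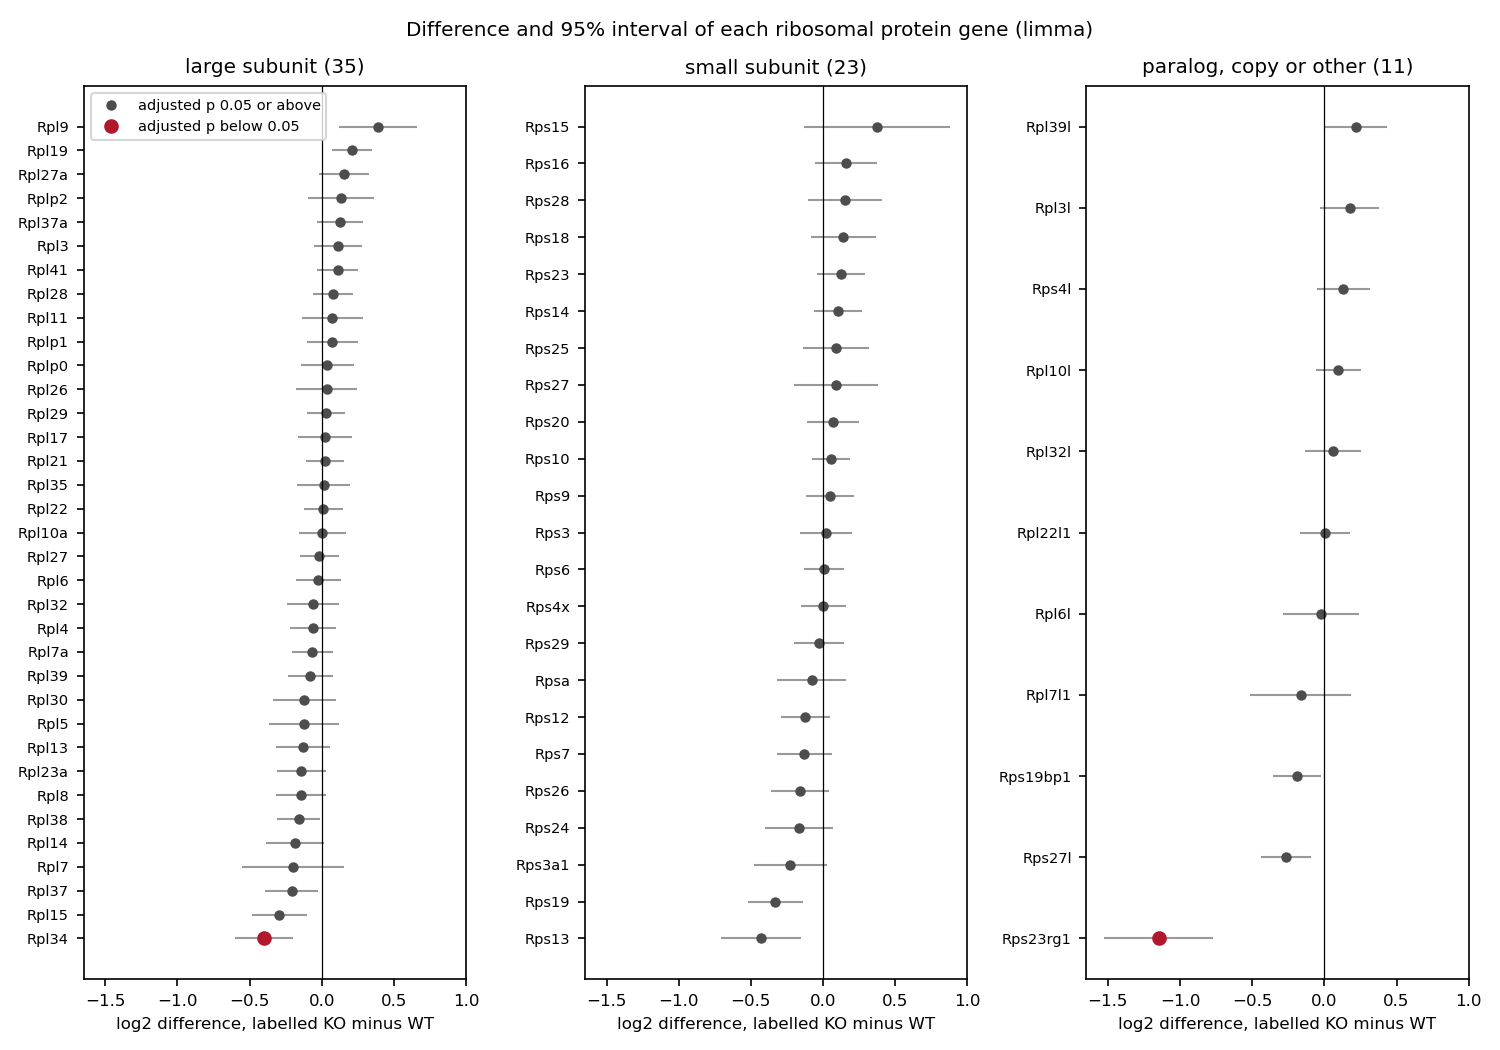
Difference of each of the 69 genes on the log2 scale, arrays labelled knockout (KO) minus wild-type (WT) arrays, with bars for the 95% interval from limma, by large subunit, small subunit and other genes. Only Rps23rg1 at -1.15 and Rpl34 at -0.40 have an adjusted p below 0.05, and most other points lie close to 0.

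Among the 35 proteins of the large subunit 1 gene passed the test, and the median difference was 0.00, with a range of -0.40 to 0.39. Rpl34, a protein of the large subunit, read 7.89, 7.84, 7.99 and 7.65 in arrays labelled knockout, against 8.34, 8.16, 8.31 and 8.15 in wild-type arrays. All 4 arrays labelled knockout lay below all wild-type arrays. Rpl34 fell by 0.40 log2 units (1.32-fold lower; SE 0.09, 95% interval -0.60 to -0.20; limma adjusted p = 0.0449). That call was lost when any 1 of 7 of the 8 arrays was left out, with adjusted p up to 0.130, and stayed without knockout-labelled replicate 3, at 0.0363. Rpl34 differed by -0.41 within the Xist set and by -0.38 within the Y-linked set, and neither set alone gave a call (adjusted p = 0.265 and 0.259).

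The large-subunit genes with the next smallest p values ran in both directions and did not pass the test. Rpl15 read 11.26, 11.10, 10.96 and 11.08 in arrays labelled knockout and 11.37, 11.48, 11.47 and 11.26 in wild-type arrays, a difference of -0.29 (SE 0.08; limma adjusted p = 0.0896). Its groups met at knockout-labelled replicate 1 and wild-type replicate 4, and it differed by -0.35 within the Xist set and -0.24 within the Y-linked set. Rpl19 read 11.99, 11.97, 11.99 and 12.02 in arrays labelled knockout and 11.83, 11.84, 11.76 and 11.72 in wild-type arrays, a difference of 0.21 (SE 0.06; limma adjusted p = 0.0996). Its groups were apart, with the arrays labelled knockout above and within 0.05 of each other, and it differed by 0.27 within the Xist set and 0.15 within the Y-linked set. Rpl9 read 9.07, 9.29, 9.19 and 9.34 in arrays labelled knockout and 9.19, 8.76, 8.62 and 8.76 in wild-type arrays, a difference of 0.39 (SE 0.12; limma adjusted p = 0.108). Wild-type replicate 1 lay among the arrays labelled knockout, and without it the difference was 0.51 and passed the test (limma adjusted p = 0.0406). Rpl9 differed by 0.58 within the Xist set and by 0.20 within the Y-linked set. Rpl19 and Rpl9 each have a second row, and there the differences were 0.09 and 0.10. Those rows had lower means, 6.28 against 11.89 for Rpl19 and 5.32 against 9.03 for Rpl9. Whether a row reads the functional gene or a processed copy could not be told without probe sequences, for these genes and for Rps19 below.

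Rpl38, known in mice for its part in translating Hox messenger RNAs, differed by -0.16 (limma adjusted p = 0.202) with the groups apart. Rpl41, which encodes a very short peptide, differed by 0.11 (adjusted p = 0.342), also with the groups apart. Rpl37 differed by -0.21 (adjusted p = 0.186). Rplp0, Rplp1 and Rplp2, which form the stalk that recruits elongation factors, differed by 0.04, 0.07 and 0.14 (adjusted p = 0.811, 0.612 and 0.466). Rpl5 and Rpl11, which carry the 5S RNA into the subunit and bind the p53 regulator Mdm2, differed by -0.12 and 0.07 (adjusted p = 0.530 and 0.683). Among 8 measured proteins at the exit of the peptide tunnel none passed the test, and their median was 0.01.

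Among the 23 proteins of the small subunit no gene passed the test, and the smallest adjusted p was 0.0670. Their median difference was 0.02, with a range of -0.43 to 0.37, and 2 of the 23 had an unadjusted p below 0.05. Rps19, the gene most often mutated in the human red cell disorder Diamond-Blackfan anemia, read 9.65, 9.63, 9.42 and 9.61 in arrays labelled knockout, against 9.98, 9.95, 9.98 and 9.73 in wild-type arrays. The groups were apart, with a difference of -0.33 (SE 0.09; limma adjusted p = 0.0670), which was -0.34 within the Xist set and -0.32 within the Y-linked set. Rps19 has 3 rows, but 2 of them repeat 1 set of values, and the third, at a mean of 6.44, differed by 0.03. Rps13 read 9.09, 9.02, 8.53 and 9.03 in arrays labelled knockout, against 9.42, 9.42, 9.37 and 9.18 in wild-type arrays, a difference of -0.43 (SE 0.13; limma adjusted p = 0.0909). Its groups were apart too, and without the low knockout-labelled replicate 3 the difference was -0.30 (limma adjusted p = 0.0954). Rps13 differed by -0.50 within the Xist set and -0.37 within the Y-linked set.

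Rps6, the protein that S6 kinases phosphorylate downstream of mTOR, was the closest to level among the small-subunit genes shown by sequence. It read 12.96, 13.08, 13.03 and 13.03 in arrays labelled knockout, against 13.04, 13.03, 12.97 and 13.03 in wild-type arrays. The groups overlapped throughout, with a difference of 0.01 (95% interval -0.13 to 0.14; limma adjusted p = 0.968). Rps4x, an X-linked small-subunit gene, averaged 10.18 ± 0.02 in arrays labelled knockout and 10.18 ± 0.10 in wild-type arrays (SD, n = 4 each), with a difference of 0.00 (95% interval -0.15 to 0.16). Rpsa, also known as a laminin receptor, differed by -0.08. Of 9 listed genes mutated in Diamond-Blackfan anemia 7 were measured and none passed the test, with a median of -0.13. Among them Rps26, Rps24, Rps7 and Rps10 differed by -0.16, -0.17, -0.13 and 0.06.

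Rps15 had the widest spread among the small-subunit genes. It read 5.98, 5.46, 6.56 and 5.89 in arrays labelled knockout, against 5.83, 5.65, 5.11 and 5.81 in wild-type arrays, a difference of 0.37 (limma adjusted p = 0.367). The groups overlapped, and Rps15 differed by 0.76 within the Xist set and by -0.02 within the Y-linked set. A test of the difference between those sets found no member with an unadjusted p below 0.05, and the smallest adjusted p was 0.911. Rps27 differed by 0.09, with an SD of 0.30 in wild-type arrays.

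**Figure D2:**
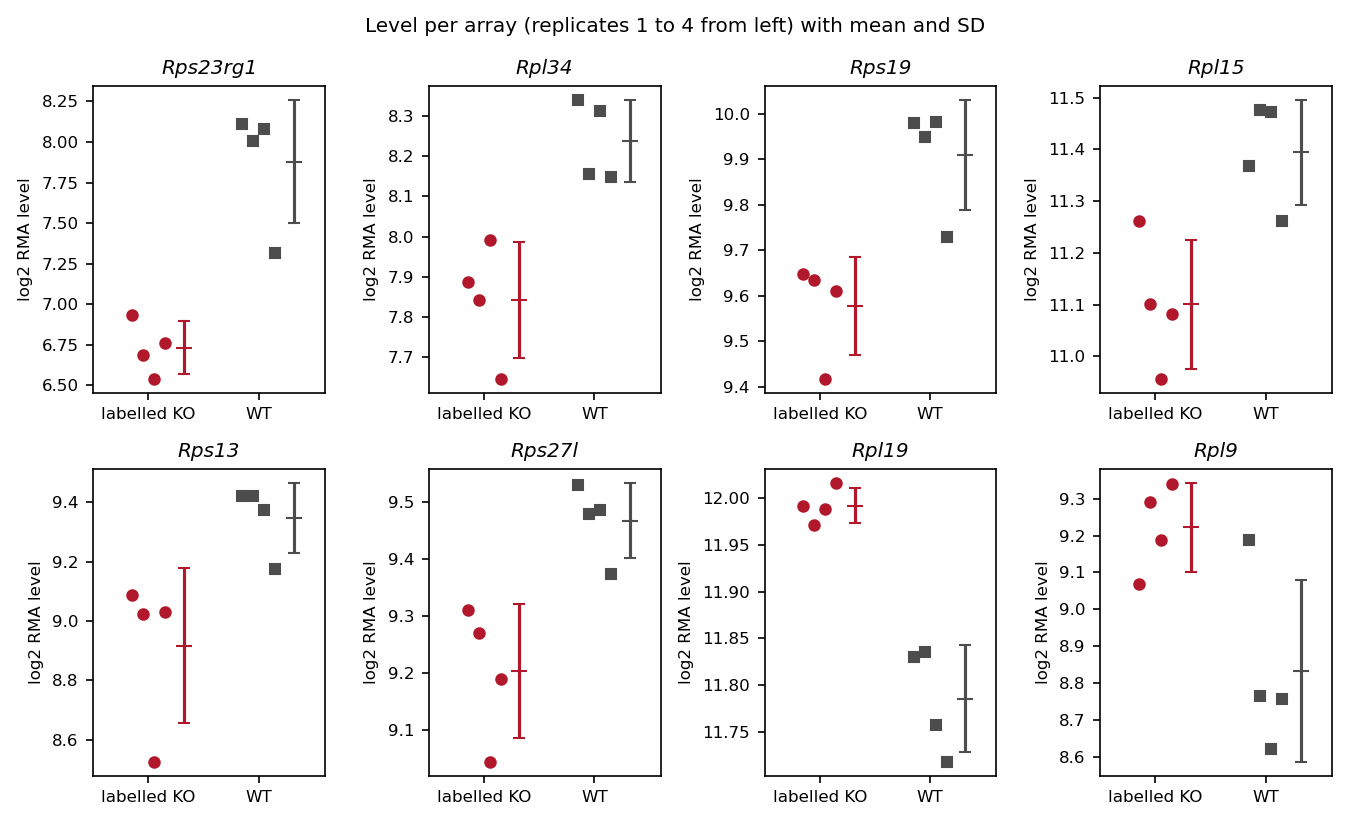
Log2 RMA level in each array for the 8 genes with the smallest p, arrays labelled knockout (circles, left) and wild-type arrays (squares, right), with the mean and SD (n = 4 each) beside them; each panel has its own axis. Rps23rg1 has the widest gap, and in Rpl9 wild-type replicate 1 lies among the arrays labelled knockout.

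Among the 11 other genes with the prefix 1 passed the test, and it held the clearest difference of the whole set. Rps23rg1 is a mouse gene that arose as a retroposed copy of Rps23 and encodes a membrane protein, not a ribosomal subunit. It read 6.93, 6.68, 6.54 and 6.76 in arrays labelled knockout, against 8.11, 8.01, 8.08 and 7.31 in wild-type arrays. Every array labelled knockout lay below every wild-type array, and wild-type replicate 4 was the lowest of its group. Rps23rg1 fell by 1.15 log2 units (2.22-fold lower; SE 0.17, 95% interval -1.53 to -0.77; limma adjusted p = 0.0105). The call stayed in each of the 8 fits that left out 1 array, with adjusted p between 0.00233 and 0.0395. Within the Xist set Rps23rg1 differed by -1.05, where limma gave an adjusted p of 0.113, and within the Y-linked set by -1.25, at 0.0199. Rps23, from which the copy derives, differed by 0.12 (limma adjusted p = 0.374). Whether the probes of the 2 genes share sequence was not tested.

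The other 10 did not pass the test. Rps27l, a paralog of Rps27 that p53 induces, read 9.31, 9.27, 9.05 and 9.19 in arrays labelled knockout, against 9.53, 9.48, 9.49 and 9.37 in wild-type arrays. The groups were apart, with a difference of -0.26 (SE 0.08; limma adjusted p = 0.0951), which was -0.31 within the Xist set and -0.21 within the Y-linked set. Rps19bp1, which encodes a protein that binds Rps19, differed by -0.19 (adjusted p = 0.176), also with the groups apart. Rpl39l and Rpl10l, paralogs known from testis, differed by 0.22 and 0.10, and Rpl3l, known from heart and skeletal muscle, by 0.17. Rpl22l1, the paralog of Rpl22, differed by 0.00 and Rpl22 itself by 0.01. Rpl7l1, Rps4l, Rpl32l and Rpl6l differed by -0.16, 0.13, 0.06 and -0.03.

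The lowest and highest values of the members gathered in some arrays. Knockout-labelled replicate 3 held the lowest of the 8 values for 22 members (31.9%), against 18.7% of all genes, and wild-type replicate 4 for 16 members (23.2%), against 8.35% of all genes. Knockout-labelled replicate 3 held the highest value for 5 members (7.25%), against 27.0% of all genes, and wild-type replicate 1 for 20 members (29.0%), against 12.9% of all genes. The median deviation of the members from their gene means was 0.01, -0.01, -0.03 and 0.02 in knockout-labelled replicates 1 to 4 and 0.05, 0.03, 0.03 and -0.05 in wild-type replicates 1 to 4. Over all genes it stayed between -0.02 and 0.03. Knockout-labelled replicate 3, lowest for the members among its group, was the highest for all genes. By subunit, its median was -0.004 for the large and -0.03 for the small. In knockout-labelled replicate 2 these medians were -0.05 and 0.02.

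Knockout-labelled replicate 3 lay more than 0.25 below the next lowest array for 5 members (7.25%), beside 4.57% of all genes. Named after their values were seen, these were Rpl7, Rpl7l1, Rps13, Rps3a1 and Rps24. Rpl7, a large-subunit protein, read 9.12, 9.31, 8.51 and 9.27 in arrays labelled knockout, against 9.39, 9.15, 9.28 and 9.20 in wild-type arrays. The 1 low array carried its difference of -0.20, which was -0.02 without it. Rpl7l1 differed by 0.02 without that array and Rps24 by -0.07.

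**Figure D3:**
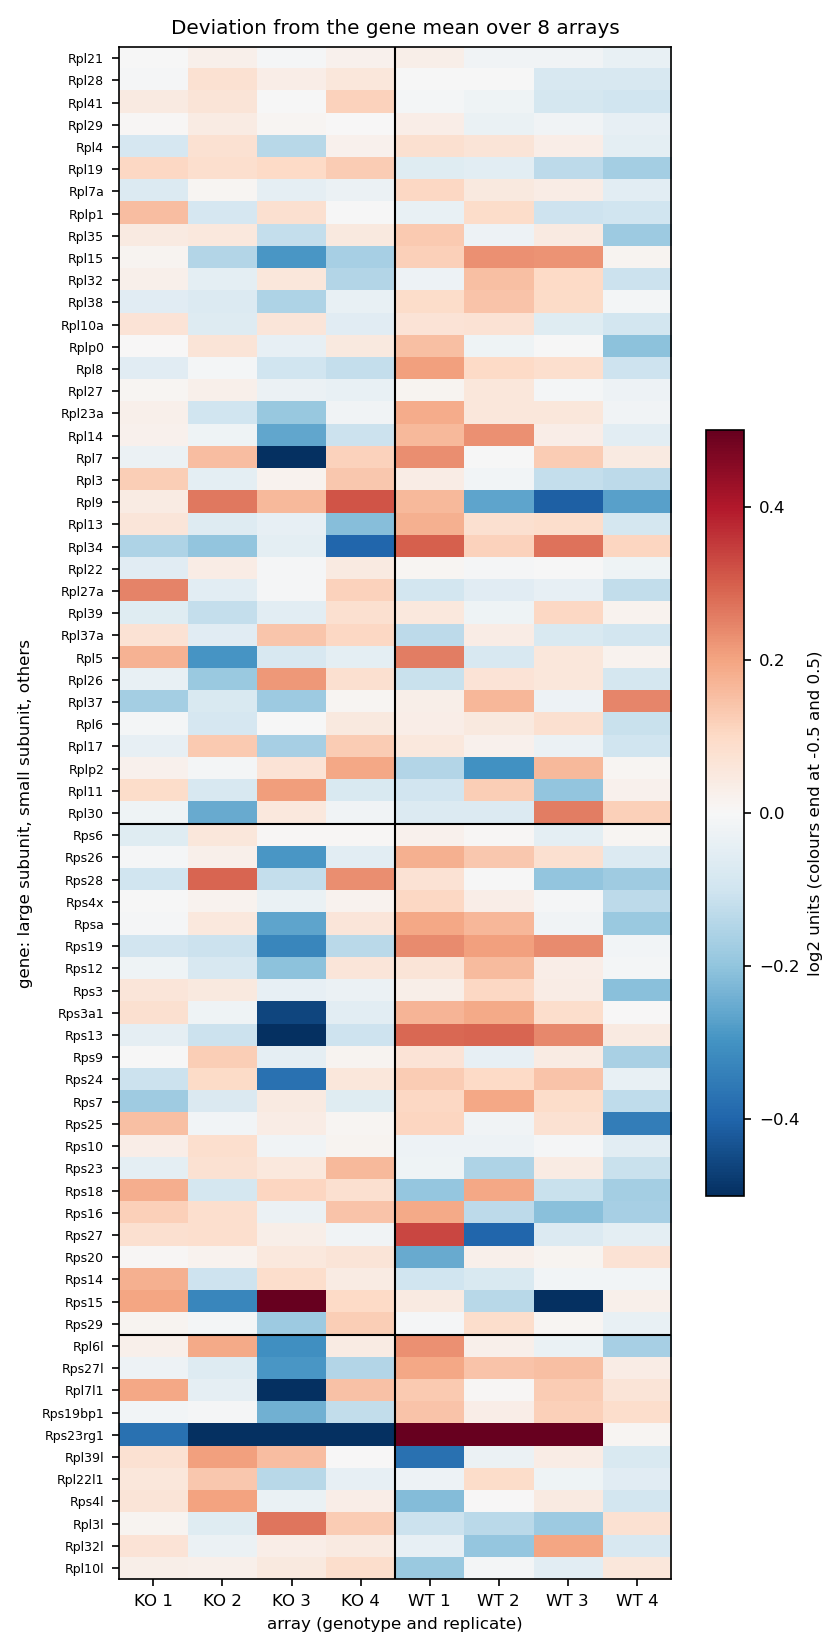
Deviation of each gene from its own mean over the 8 arrays, in log2 units (blue below, red above), with arrays labelled knockout (KO) left of wild-type (WT) arrays and genes grouped by subunit. The row of Rps23rg1 splits by group, and knockout-labelled replicate 3 is dark blue for Rpl7, Rpl7l1, Rps13 and Rps3a1.

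**Figure D4:**
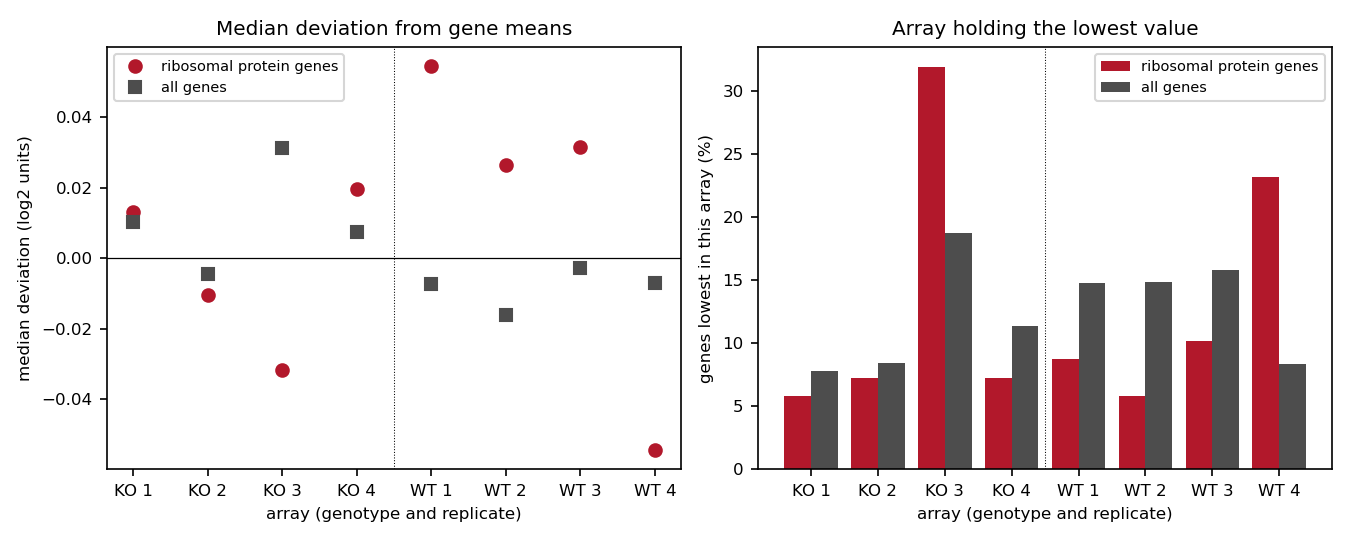
Left, median deviation from the gene means in each array for the ribosomal protein genes (circles) and all genes (squares), in log2 units. Right, the percentage of genes whose lowest value lies in each array, where knockout-labelled (KO) replicate 3 holds 31.9% of the ribosomal protein genes and wild-type (WT) replicate 4 holds 23.2%.

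Of the 69 genes 25 have more than 1 row, and the row with the highest mean was kept. None of their 41 other rows passed the test in a limma fit over all rows, where 1.06% of the 22180 kept rows were called. The sign was that of the kept row in 31 of the 41. Of the 41, 7 repeat the values of another row of their gene, as 6 rows of Rps12 share 1 set of values, and 24 of the 34 distinct rows had the sign of the kept row. Their differences lay between -0.33 and 0.32. A further 28 rows name, together with another gene, a listed ribosomal protein gene that has no row of its own. They also held no call, with 6 at an unadjusted p below 0.05, beside 21.2% of all genes in the main fit. Across these 28 rows the median difference was -0.07, with a range of -0.97 to 0.25. The row at -0.97, whose genes are not named here, fell further than any member but Rps23rg1. Rows that name a measured member together with another gene were not examined. For 12 members the mean level lay below the median of all rows in every array (6.09 to 6.22), where a lower level can be harder to see. That median is not a floor, as the lowest member value was 3.53. These were Rpl37, Rpl6, Rpl17, Rps14, Rps15, Rplp2, Rpl11, Rpl30, Rps29, Rpl3l, Rpl32l and Rpl10l. A small difference in such a row need not mean an equal transcript level.

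Few of the genes that serve the ribosome were called, which does not show that the others were level. Of 55 measured genes for ribosome assembly 2 were called higher and none lower, with a median of 0.07, beside 3.15% of all genes called. At an unadjusted p below 0.05, 9 were higher and 3 lower, which is 21.8% beside 21.2% of all genes. Their 95% intervals lay within 0.32 log2 units of 0 for 49.1%, beside 48.4% of all genes. Gnl2, a nucleolar GTPase that helps to build the large subunit, read 9.35, 9.50, 9.74 and 10.03 in arrays labelled knockout, against 9.05, 8.71, 8.93 and 9.17 in wild-type arrays. It rose by 0.69 (SE 0.15; limma adjusted p = 0.0395) with the groups apart. Nob1, the nuclease that trims the RNA of the small subunit, read 8.57, 8.62, 8.75 and 8.61 in arrays labelled knockout, against 8.34, 8.34, 8.30 and 8.38 in wild-type arrays. It rose by 0.30 (SE 0.07; limma adjusted p = 0.0438), and its groups were apart too. Each of the 2 calls stayed in 1 of the 8 fits that left out an array, with adjusted p up to 0.112 for Gnl2 and 0.122 for Nob1. Gnl2 differed by 0.84 within the Xist set and 0.55 within the Y-linked set, and Nob1 by 0.34 and 0.25, with no call in either set. The abundant nucleolar proteins Ncl and Npm1 differed by 0.12 and -0.08.

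None of the 16 measured genes for RNA polymerase I, which makes ribosomal RNA, passed the test, with a median of 0.06, and Polr1a, its largest subunit, differed by 0.30 (limma adjusted p = 0.113). None of 8 genes listed with the elongation factors, Tpt1 and Eef1e1 among them, passed, with a median of -0.07. Eef1a1 and Eef2 differed by -0.05 and 0.10, and Tpt1, whose messenger RNA carries a TOP motif, by -0.29 (adjusted p = 0.111). None of 31 initiation factor genes passed, with a median of -0.03 and a range of -0.21 to 0.20. Eif6, which keeps free large subunits from joining, differed by 0.20 (adjusted p = 0.217). Fau, which encodes a fusion that yields the small-subunit protein eS30, differed by 0.08 (adjusted p = 0.506). The 8 measured host genes of small nucleolar RNAs, whose spliced RNAs also begin with TOP motifs, had differences of 0.01 to 0.32, and none passed the test.

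In the mTOR list 1 of 19 measured genes was called lower and none higher, with a median of -0.10. Sesn3, a sestrin that restrains mTOR complex 1, read 8.59, 8.56, 7.97 and 8.25 in arrays labelled knockout, against 8.95, 8.94, 9.22 and 8.79 in wild-type arrays. It fell by 0.63 (SE 0.14; limma adjusted p = 0.0463), the groups were apart, and the call stayed in 2 of the 8 fits that left out an array. Sesn3 differed by -0.89 within the Xist set and -0.37 within the Y-linked set, with no call in either. Mtor, the kinase itself, differed by -0.36 (adjusted p = 0.0800). Ddit4, another mTOR restrainer, read 7.37, 8.23, 10.65 and 9.63 in arrays labelled knockout, against 7.61, 7.29, 7.12 and 6.95 in wild-type arrays. Its groups overlapped and its difference was 1.73 (adjusted p = 0.129). The high arrays, knockout-labelled replicates 3 and 4, carry Xist signal, and the difference was 3.10 within the Xist set (adjusted p = 0.0109) and 0.35 within the Y-linked set (adjusted p = 0.727).

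Markers of other cell types moved between the groups, and their part in the values above was not tested. In bulk RNA, fewer cells of a type and less RNA per cell cannot be told apart. Of 16 neutrophil markers 12 were called higher and 1 lower, and their summed linear level was 10132 to 13337 in arrays labelled knockout and 5178 to 8184 in wild-type arrays. Most of that sum is Lcn2, which hepatocytes also make in the acute phase, and without it the sums were 2510 to 3980 in arrays labelled knockout and 1621 to 2026 in wild-type arrays. Of 12 macrophage markers 6 were called higher, with sums of 14288 to 17649 in arrays labelled knockout and 9615 to 11678 in wild-type arrays. Of 14 T and NK cell markers 2 were called higher, with sums of 1405 to 1604 in arrays labelled knockout and 1184 to 1404 in wild-type arrays. Of 13 erythroid markers, cells whose precursors depend on ribosome supply, 3 were called lower, with sums of 1107 to 1139 in arrays labelled knockout and 1403 to 1859 in wild-type arrays. The called ones were Car2, Car1 and Tspan33, and without them the sums overlapped, at 699 to 818 in arrays labelled knockout and 697 to 908 in wild-type arrays. Of the 13, 5 had differences above 0 and none of those passed the test. None of 11 cell cycle and none of 7 B and plasma cell markers was called. Hepatocyte marker sums were 87686 to 89531 in arrays labelled knockout and 89484 to 91056 in wild-type arrays.

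RefSeq promoter windows of 300 bases, 250 before the start and 50 after it, were matched to 54 of the 69 genes. A C at the start followed by at least 4 C or T was found in 11 (20.4%), beside 2.49% of the 27025 genes with a window. An unbroken run of at least 8 C or T within 50 bases of the start was found in 42 (77.8%), beside 35.7% of all. The core of the ETS factor motif, CGGAAG on either strand, was found in 34 (63.0%), beside 17.2% of all. The YY1 core ATGGCGGC on either strand was found in 4 (7.41%), beside 2.38%, and the TATA box letters TATAAA on the gene's strand in 5 (9.26%), beside 8.88%. These matches describe letters, not binding. The 11 genes with the run at the start, which include Rpl15 and Rps6, had a median difference of 0.06 and a range of -0.29 to 0.14. The 43 others with a window, which include Rps23rg1, Rpl34, Rps19 and Rps13, had a median of 0.00 and a range of -1.15 to 0.39.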

How the data were processed

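The authors deposited log2 values from robust multi-array averaging (RMA) with R 3.0.1, as the submitters' processing notes say. The sources used here name no background setting and no genome build. Of 41345 rows, 23521 name 1 gene, 1814 several and 16010 are unnamed. Rows naming 1 gene gave 22180 genes, each read from its row with the highest mean. Groups came from the sample titles. All 8 arrays were fitted with limma 3.58.1 (lmFit and eBayes, no trend) in R 4.3.3, without covariates or a filter on low values, with Benjamini-Hochberg adjustment over all 22180 genes. A gene was called at an adjusted p below 0.05, and every adjusted p comes from limma. With no stated link between arrays and animals beyond a count, p-values reflect only sample-to-sample spread, which may be technical, and 4 arrays per group limit the precision. The steps were tested on simulated data. Array correlations were 0.976 to 0.994, and the closest pair differed by a root mean square of 0.216, so no array repeats another.

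The members and lists were chosen with earlier results of these data known. The genes named are those called, the 8 next by p, the 5 highest and 5 lowest in mean level, the 5 with the widest spread, listed paralogs and complexes, given genes and the 3 smallest p of each other list; not every one is described. Of 77 subunit genes listed 58 were measured; the others are not analysed here. All 69 symbols are the same in the RefSeq table. The labels tie replicate numbers to no litter or day, so the numbers were not taken as pairs. Same-numbered arrays of the 2 groups gave correlations of deviations of 0.27, 0.04, -0.10 and 0.29. The highest with a wild-type array of another number was 0.06, 0.29, 0.31 and 0.10. These values do not settle whether the numbers mark pairs. Alternatives were a filter on the lowest 40% of genes, the mean of rows, all rows, 3 scalings, trend and robust settings, array weights, the replicate block, a term for Xist or Y-linked signal, each such set alone, each array left out and an adjusted p below 0.1. Marker sums without single genes were added after seeing the data. Plots used matplotlib 3.10.9 (Python 3.11.15).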

Additional observations from a re-analysis of the deposited data

Results flagged for a closer look

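Of 86 groups of 4 arrays examined among the named ribosomal protein genes, 4 held an array whose gap to the nearest of the others exceeded Dixon's critical value at 95%, a limit that chance passes in about 1 in 20 groups. Rps23rg1 was low in wild-type replicate 4, at 7.31, with the other wild-type arrays between 8.01 and 8.11. Rps19 was low in knockout-labelled replicate 3, at 9.42, with the others between 9.61 and 9.65. Rps19 was also low in wild-type replicate 4, at 9.73, with the others between 9.95 and 9.98. Rps13 was low in knockout-labelled replicate 3, at 8.53, with the others between 9.02 and 9.09. Knockout-labelled replicate 3 and wild-type replicate 4 are the arrays that held the lowest value for most ribosomal protein genes.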

How the results depend on the processing

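The count of ribosomal protein genes called lower was 2, and it was 1 with all rows tested, with quantile normalization, with the replicate block and in the Y-linked set, 0 in the Xist set, 6 at an adjusted p below 0.1 (with 1 called higher there) and 3 with cyclic loess, which added Rps19. It was 1 to 2 when 1 array was left out, with 0 to 1 called higher, the 1 being Rpl9 without wild-type replicate 1. Rps23rg1 was called under every alternative but the Xist set, and Rpl34 was lost with all rows (adjusted p = 0.0862), quantile normalization (0.0585), the replicate block (0.0517) and both sets; the cause was not tested, and the sets hold fewer arrays. The median difference lay between -0.02 and 0.02 with 1 array left out and was -0.046 after shifting arrays to a common median, where the median of all genes was -0.03. Over all genes the calls ran from 171 in the Y-linked set and 234 with all rows to 1038 with the term for signal and 1685 at 0.1, against 699, with 497 under the replicate block and 207 to 1040 with 1 array left out; after the common median 236 were higher and 393 lower, against 347 and 352. The filter on low genes left 57 of the 69 members.

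Some uncalled differences changed sign, with no call on either side; most were near 0, but Rps15 (0.37), Rpl7 (-0.20), Rpl7l1 (-0.16) and Rps7 (-0.13) were not. The mean of rows gave Rpl29 -0.15 and Rpl7 0.0025. The common median gave Rpl21 -0.031, Rpl22 -0.042, Rpl22l1 -0.047, Rpl29 -0.023, Rplp0 -0.013, Rps4x -0.051 and Rps6 -0.046. Quantile normalization gave Rpl22 -0.028, Rpl22l1 -0.045 and Rps6 -0.022, cyclic loess Rpl11 -0.0069, Rpl22 -0.030 and Rpl22l1 -0.043, and array weights Rps29 0.0046. The Xist set gave Rpl22l1 -0.052, Rpl32l -0.019 and Rps7 0.012. The Y-linked set gave Rpl11 -0.0070, Rpl22 -0.013, Rpl7l1 0.0047, Rplp0 -0.031, Rps15 -0.017, Rps4x -0.060 and Rps6 -0.014. With 1 array left out, Rpl22 ranged from -0.0037 to 0.031, Rpl22l1 from -0.039 to 0.052, Rpl7l1 from -0.26 to 0.016, Rplp0 from -0.023 to 0.096, Rps27 from -0.029 to 0.21, Rps29 from -0.074 to 0.027, Rps4x from -0.043 to 0.035 and Rps6 from -0.013 to 0.026.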
